A study of Mus musculus with 9 samples.

Results

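Placental growth factor (Pgf), its relatives Vegfa, Vegfb and Vegfc, and the receptor genes Flt1, Kdr and Flt4 were followed in N1E-115 cells, a mouse neuroblastoma line of sympathetic type that grows neurites once serum is removed. The 7 genes were taken by symbol from the platform annotation, out of 22180 genes measured on 9 arrays. Each had 1 probe set of its own, so no choice between probe sets was needed. Pgf was chosen by its large difference between 4 h and 24 h in control cells, one of the largest measured. Its values in the comparisons that use the 4 h arrays are therefore a description without a test, and its relatives were added by family.

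The 3 groups, with 3 arrays each, were cells given control siRNA and collected at 4 h, cells given control siRNA and collected at 24 h, and cells given hmgn5 siRNA and collected at 24 h. All had received 80 nM siRNA (for Hmgn5 a commercial pool), an overnight period without serum and replating on laminin, so every sample came from starved, transfected and replated cells of 1 line. Hmgn5 is a nucleosome-binding protein that loosens chromatin, and the study asked about its part in neurite outgrowth. No label states that replicates were grown as separate cultures, and p-values here reflect only how far these samples differ from each other, which may be technical variation.

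Ligands of this family are secreted dimers that act on receptor tyrosine kinases best known from blood and lymph vessels. Pgf and Vegfb bind Flt1, Vegfa binds Flt1 and Kdr, and Vegfc binds Flt4 and, after processing, Kdr. Neuropilins act as co-receptors, and in neurons they also bind semaphorins. Vegfa is a classic target of the hypoxia-inducible factors, and Pgf has been described as a target of both hypoxia and the metal-responsive factor Mtf1.

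All 7 members had promoter windows in the RefSeq table, 9 windows in all, each reaching from 250 bases before a start site to 50 after it. Those of Pgf, the member with the largest difference, and of Vegfa, the ligand with the smallest difference between the times, are shown 5′ to 3′. Capitals mark matches on either strand to the hypoxia response cores ACGTG and GCGTG and to the metal response cores TGCACNC and TGCGCNC.
Pgf start site 1 (GRCm38.p6, chr12:85177264-85177563, minus strand): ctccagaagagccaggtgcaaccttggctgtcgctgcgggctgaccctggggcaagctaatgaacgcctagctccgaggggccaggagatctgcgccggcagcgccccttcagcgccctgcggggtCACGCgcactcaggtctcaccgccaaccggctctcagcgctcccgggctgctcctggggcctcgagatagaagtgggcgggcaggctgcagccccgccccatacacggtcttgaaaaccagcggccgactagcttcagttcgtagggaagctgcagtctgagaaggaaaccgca
Pgf start site 2 (GRCm38.p6, chr12:85175933-85176232, minus strand): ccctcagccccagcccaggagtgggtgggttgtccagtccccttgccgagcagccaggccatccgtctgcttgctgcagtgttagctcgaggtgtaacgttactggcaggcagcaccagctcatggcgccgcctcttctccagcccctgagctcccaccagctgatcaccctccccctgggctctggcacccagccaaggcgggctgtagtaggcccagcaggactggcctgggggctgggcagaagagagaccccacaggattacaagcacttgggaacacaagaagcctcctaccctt
Vegfa start site 1 (GRCm38.p6, chr17:46032328-46032627, minus strand): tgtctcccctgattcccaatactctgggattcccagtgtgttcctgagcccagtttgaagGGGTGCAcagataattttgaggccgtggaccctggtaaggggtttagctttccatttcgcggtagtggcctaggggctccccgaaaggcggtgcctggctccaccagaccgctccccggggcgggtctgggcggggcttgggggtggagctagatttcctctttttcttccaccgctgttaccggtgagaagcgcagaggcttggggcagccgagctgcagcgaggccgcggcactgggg
Vegfa start site 2 (GRCm38.p6, chr17:46025114-46025413, minus strand): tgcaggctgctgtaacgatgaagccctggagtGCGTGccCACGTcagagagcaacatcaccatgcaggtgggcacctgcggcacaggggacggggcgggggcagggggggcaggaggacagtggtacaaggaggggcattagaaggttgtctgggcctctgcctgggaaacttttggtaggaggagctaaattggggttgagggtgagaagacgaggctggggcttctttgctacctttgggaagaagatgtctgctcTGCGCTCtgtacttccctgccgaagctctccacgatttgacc
The first Pgf window held 1 match, a GCGTG core on the opposite strand whose match begins 124 bases before the start site, and the second held none. The first Vegfa window held 1 metal core and the second 3 matches, with no overlaps between matches. By their coordinates the second windows of both genes lie downstream of the first start sites. Whether matches there fall in exon sequence was not examined. Among the windows not shown, those of Vegfb, Flt1 and Kdr held hypoxia cores, that of Flt4 a metal core and that of Vegfc no match. Of 32851 windows of the same length, 43.8% held either hypoxia core and 25.7% either metal core. Such letter matches are common and show no factor at work, and a window without them says nothing of sequence outside it.

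Pearson's r between arrays lay between 0.978 and 0.995 over 41345 probe sets, and at least 0.991 without control 4 h replicate 2, which stood apart (array weight 0.198, others 0.789 to 1.74). Hmgn5 fell by 1.21 on the log2 scale with its siRNA at 24 h (SE 0.09, n = 3 per group, limma adjusted p = 0.00367), a call that did not hold in 3 of 9 fits with 1 array left out, namely control 24 h replicate 1, hmgn5 siRNA replicate 2 and hmgn5 siRNA replicate 3 (adjusted p up to 0.0558). Of 12 measured markers of sympathetic neuroblastoma, 11 lay above 75% of all probe sets at their median, among them Th, Dbh and Hand2, and Ddc lay at 44.1%. Of 14 endothelial markers 7 lay in the lower part of the probe sets (under 50%), with Tek at 20.8% and Emcn at 21.1%, while Egfl7 lay at 76.7% and Vwf at 74.2%. Leukocyte markers lay under 50% for 10 of 12. Of 12 fibroblast and pericyte markers 7 lay above 50%, with Rgs5 at 91.5% and Pdgfrb at 77.8%, and 5 lay under it. Glial markers lay under 50% for 6 of 8 and trophoblast markers for 2 of 5. No marker value was 0, since these values have no true zero.

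Among the ligands, Pgf was higher on every 24 h array than on every 4 h array. At 4 h it measured 7.40, 6.96 and 7.24 (log2, replicates 1 to 3), in 24 h controls 8.34, 8.31 and 8.59, and with hmgn5 siRNA 8.13, 8.09 and 8.42. The lowest 24 h control array lay 0.91 above the highest 4 h array, while the control and hmgn5 siRNA arrays at 24 h overlapped. Means were 7.20 ± 0.23, 8.42 ± 0.15 and 8.22 ± 0.18 (SD, n = 3 each). The 24 h minus 4 h difference in control cells was 1.22 (SE 0.13), or 2.32-fold, and 5 of the 22180 genes had a larger positive one. These values chose the gene, and no test is attached to them. In bulk RNA, more cells with the transcript and more transcript per cell cannot be told apart. In position on the array Pgf moved from above 70.4% to 74.9% of probe sets at 4 h to above 83.4% to 85.7% in the 24 h controls. Its difference was 1.10 without control 4 h replicate 2, the array with the lowest Pgf value.

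**Figure D1:**
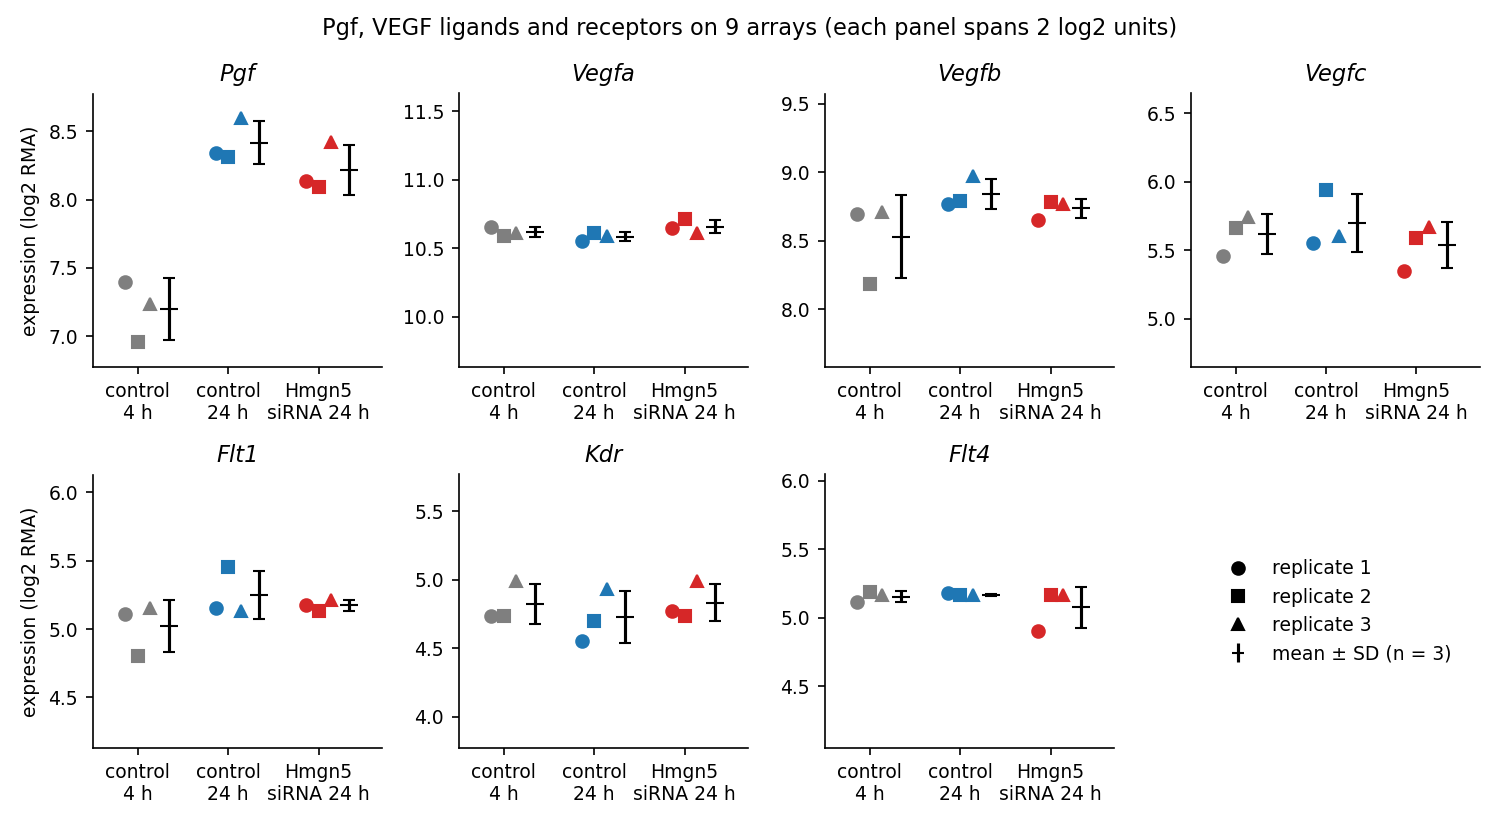
Expression (log2 RMA values) of the 7 genes on each of the 9 arrays, with mean ± SD (n = 3) beside the points. Each panel spans the same 2 log2 units. Pgf alone shows 4 h arrays (6.96 to 7.40) well below all 24 h arrays (8.09 to 8.59), and Vegfa varies least among the ligands.

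Vegfa, the main angiogenic ligand, gave nearly the same values in all groups. It measured 10.66, 10.59 and 10.61 at 4 h, 10.55, 10.61 and 10.59 in 24 h controls, and 10.65, 10.71 and 10.61 with hmgn5 siRNA. Over the 9 arrays it spanned 0.16, against 1.64 for Pgf, and its groups overlapped. Exactly the same Vegfa value stood on 3 of the 9 arrays, so its small span and interval may understate its true spread. Over time in control cells the Vegfa difference was -0.03 with a 95% interval of -0.16 to 0.09 (limma adjusted p = 0.808, n = 3 per group), an interval of 0.894 to 1.07 times the 4 h level. Its probe set lay above 96.6% to 97.1% of all probe sets on every array.

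Vegfb, a Flt1 ligand linked to lipid handling and neuron survival, was higher in all 24 h controls than at 4 h by a margin of 0.06, without passing the test. Its values were 8.70, 8.18 and 8.71 at 4 h, 8.77, 8.79 and 8.97 in 24 h controls, and 8.65, 8.79 and 8.77 with hmgn5 siRNA. The difference over time was 0.31 (95% interval 0.01 to 0.61, limma unadjusted p = 0.0414, adjusted p = 0.252, n = 3 per group). Control 4 h replicate 2 held the low value, and without that array the difference was 0.14 (adjusted p = 0.378).

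Vegfc, the lymphatic ligand, measured 5.46, 5.66 and 5.74 at 4 h, 5.55, 5.94 and 5.60 in 24 h controls, and 5.35, 5.59 and 5.67 with hmgn5 siRNA. The groups overlapped, and the array with the lowest value and the array with the highest were both at 24 h. Over time the difference was 0.08 (95% interval -0.20 to 0.36, limma adjusted p = 0.802, n = 3 per group), and it changed sign under 2 of 17 alternative analyses.

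For each receptor gene the 3 groups of arrays overlapped. Flt1, the receptor for Pgf, measured 5.11, 4.80 and 5.16 at 4 h, 5.16, 5.45 and 5.14 in 24 h controls, and 5.18, 5.13 and 5.21 with hmgn5 siRNA. Its lowest array was control 4 h replicate 2. Over time the difference was 0.23 (95% interval -0.02 to 0.47, limma adjusted p = 0.329, n = 3 per group), and 0.12 without that array (adjusted p = 0.589) or without control 24 h replicate 2, the highest.

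Kdr, the main signalling receptor for Vegfa, measured 4.74, 4.74 and 4.99 at 4 h, 4.55, 4.70 and 4.93 in 24 h controls, and 4.77, 4.74 and 4.99 with hmgn5 siRNA. Replicate 3 was the highest in each group. The difference over time was -0.10 (95% interval -0.35 to 0.16, limma adjusted p = 0.726, n = 3 per group). Flt4, the receptor for Vegfc, measured 5.11, 5.19 and 5.16 at 4 h, 5.18, 5.16 and 5.16 in 24 h controls, and 4.91, 5.16 and 5.16 with hmgn5 siRNA. A single array, hmgn5 siRNA replicate 1, stood below the rest. The difference over time was 0.01 (95% interval -0.16 to 0.18, adjusted p = 0.952). Exactly the same Flt4 value stood on 5 of the 9 arrays, and a single Kdr value on 3. Repeats on 2 or more arrays occurred for 53.3% of all genes, so the small SDs of Flt4 say little about its true spread. For Kdr the same limit holds to a lesser degree. Over all 9 arrays the 3 receptor probe sets exceeded between 38.0% and 54.0% of probe sets. No background level could be read from the deposited values, and whether these receptors were expressed is not shown by them.

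**Figure D2:**
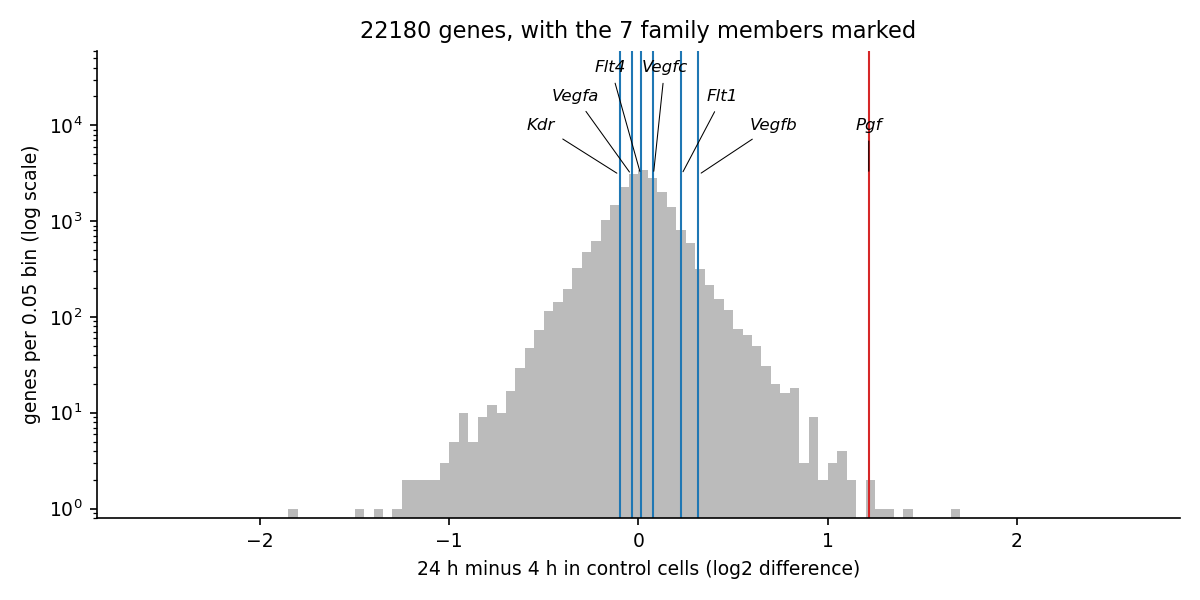
Distribution of the 24 h minus 4 h difference in control cells over 22180 genes (log2 difference on the horizontal axis, genes per bin on a log axis), with vertical lines for the family members. Pgf stands at 1.22 in the far right tail, while the other 6 lie between -0.10 and 0.31 inside the bulk of the genes.

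Leaving Pgf aside, 0 of 6 members were called over time in control cells by limma (adjusted p under 0.05), where 4.34% of all genes were called, and 1 of 6 had an unadjusted p under 0.05 against 18% of all genes. Non-overlapping groups were found for 1 of 6, Vegfb, against 21.3% of all genes. The median difference of the 6 was 0.05, beside 0.02 over all genes. In order of level within each gene, Pgf ran from 4 h to hmgn5 siRNA at 24 h to control at 24 h, and only the step up from 4 h exceeded the spread of the arrays. For Vegfb and Flt1 the order was the same, and for Vegfb the margin from 4 h to the 24 h controls was small. For Vegfa, Vegfc, Flt1, Kdr and Flt4 no 2 groups were separated on the arrays. By their means, Vegfa and Kdr were lowest in 24 h controls and highest with hmgn5 siRNA, while Vegfc and Flt4 were lowest with hmgn5 siRNA and highest in 24 h controls.

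With hmgn5 siRNA at 24 h none of the family was called. That is 0 of 7 by limma, where 0.0135% of all genes were called, and 0 of 7 had an unadjusted p under 0.05, where 5.25% of genes did. Every member's arrays met or overlapped between the siRNAs, against 12.3% of genes whose groups were apart. Differences were above 0 for 2 members and below 0 for 5, with a median of -0.09 beside 0.00 over all genes.

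Pgf had the largest difference of the 7 between the siRNAs, at -0.20 with SE 0.13 (95% interval -0.50 to 0.10, limma adjusted p = 0.984, n = 3 per group). The interval spans from 0.709 to 1.07 times the control level, so no difference was detected, and these arrays leave a fall of that size possible. This comparison shares the 24 h control arrays with the one that chose Pgf. Leaving out single arrays moved the value between -0.30 and -0.11.

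The other members lay closer to 0 at knockdown. Vegfa stood at 0.07 (95% interval -0.05 to 0.20, limma adjusted p = 0.989) and Vegfb at -0.11 (-0.40 to 0.19, adjusted p = 0.999). Vegfc stood at -0.16 (-0.44 to 0.12, adjusted p = 0.989). Among the receptors, Flt1 differed by -0.08 (-0.32 to 0.17), Kdr by 0.11 (-0.15 to 0.36) and Flt4 by -0.09 (-0.26 to 0.08), with adjusted p between 0.99 and 0.999. The Flt4 value rests on hmgn5 siRNA replicate 1, without which it was -0.0049. Single arrays moved the others too. Without control 24 h replicate 2, Flt1 stood at 0.03 and Vegfc at -0.04. Without control 24 h replicate 3, Vegfb stood at -0.04 and Kdr at 0.21, while without control 24 h replicate 1 Kdr stood at 0.02. Left out singly, the hmgn5 siRNA arrays gave -0.07 for Vegfb and for Vegfc (replicate 1), 0.05 for Vegfa (replicate 2) and 0.03 for Kdr (replicate 3).

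**Figure D3:**
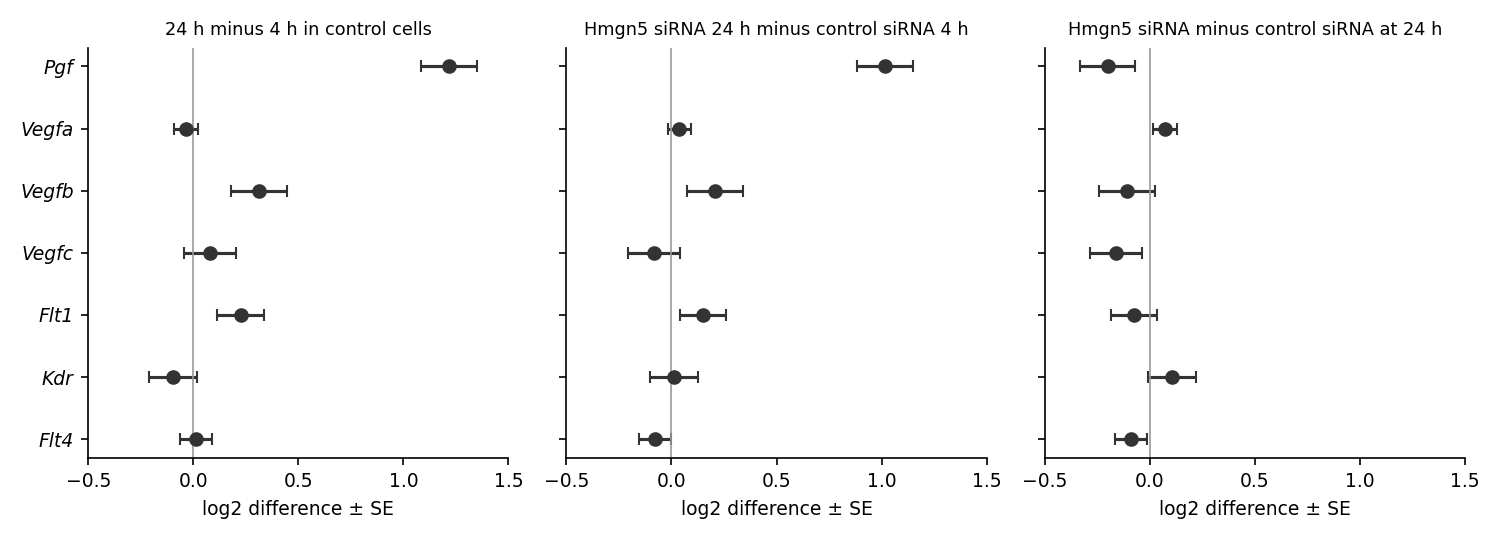
Log2 differences for the 7 genes in the 3 comparisons, with the standard error of the fit (3 arrays per group) as bars. Pgf lies near 1.22 and 1.02 in the comparisons with the 4 h arrays and at -0.20 between the siRNAs, and the other genes lie near 0.

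Set against the same 4 h arrays, hmgn5 siRNA cells at 24 h had Pgf 1.02 higher (SE 0.13), or 2.02-fold, with all 3 arrays above all 3 at 4 h. Here siRNA and time differ together, and the 4 h arrays are those that chose Pgf, so this is again a description. In the same comparison 0 of the other 6 members were called by limma, where 2.57% of genes were, and 0 had an unadjusted p under 0.05, where 15.7% did. Groups of arrays were apart for none of these 6, beside 18.9% of genes. Vegfb stood at 0.21 (95% interval -0.09 to 0.50, limma adjusted p = 0.513, n = 3 per group) and Flt1 at 0.15 (-0.10 to 0.40, adjusted p = 0.579), and the other 4 lay between -0.08 and 0.04. Without control 4 h replicate 2, Vegfb stood at 0.03 and Flt1 at 0.04.

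The 2 co-receptors, Nrp1 and Nrp2, and a further ligand, Vegfd, were not called in any comparison by limma. An unadjusted p under 0.05 was found for 1 of 3 at knockdown and 2 of 3 over time. It was also found for 2 of 3 between hmgn5 siRNA at 24 h and control at 4 h. Over all genes 5.25%, 18% and 15.7% had such a p in that order, and 0.0135%, 4.34% and 2.57% were called. Nrp2, a neuropilin that binds Vegfc and class 3 semaphorins, measured 10.22, 10.26 and 10.12 at 4 h, 10.02, 9.85 and 9.92 in 24 h controls, and 10.41, 10.44 and 10.42 with hmgn5 siRNA. All 3 groups were apart, with the knockdown arrays highest and the 24 h controls lowest. Between the siRNAs Nrp2 differed by 0.50 (SE 0.07, limma unadjusted p = 2.44e-05, adjusted p = 0.108, n = 3 per group), or 1.41-fold. With a trend and robust prior the adjusted p was 0.0394, and with array weights 0.0393. Over time it differed by -0.27 (adjusted p = 0.0521), with adjusted p = 0.0319 under the trend and robust prior and 0.0366 without the dimmest genes. Between hmgn5 siRNA at 24 h and control at 4 h it differed by 0.23 (adjusted p = 0.117, and 0.0344 with array weights).

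Nrp1, the neuropilin shared by Vegfa, Pgf and Sema3a, measured 10.26, 9.92 and 10.33 at 4 h, 10.43, 10.37 and 10.37 in 24 h controls, and 10.38, 10.39 and 10.50 with hmgn5 siRNA. It was higher on all 24 h controls than at 4 h (0.22, 95% interval -0.0036 to 0.45, limma adjusted p = 0.285, n = 3 per group). Without control 4 h replicate 2, the lowest array, the difference was 0.10. Vegfd, which like Vegfc binds Flt4, measured 7.75, 8.07 and 7.60 at 4 h, 7.41, 7.44 and 7.37 in 24 h controls, and 7.61, 7.82 and 7.46 with hmgn5 siRNA. Over time Vegfd differed by -0.40 (SE 0.12, limma adjusted p = 0.121). It was called only with the replicate number as a block (adjusted p = 0.0451), and without control 4 h replicate 2 the difference was -0.26 (adjusted p = 0.205).

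In the neighbouring growth factor families 0 of 6 genes of the platelet-derived growth factor system and 0 of 5 of the angiopoietin and Tie system were called by limma in any of the 3 comparisons. Over all genes 0.0135% were called at knockdown, 4.34% over time and 2.57% between hmgn5 siRNA at 24 h and control at 4 h. Unadjusted p was under 0.05 for 1 of 6 and 1 of 5 at knockdown (5.25% of all genes). Over time this held for 0 of 6 and 1 of 5 (18% of all genes). Among these were Pdgfc at knockdown (0.37, limma adjusted p = 0.846) and Tie1 over time (-0.29, adjusted p = 0.139). Pdgfc also differed by 0.49 between hmgn5 siRNA at 24 h and control at 4 h (adjusted p = 0.0698), and passed there with array weights (0.0364) or without the dimmest genes (0.0487).

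Genes that process, trap or restrain the ligands gave 0 of 17 calls by limma in each comparison, with 2 under an unadjusted p of 0.05 at knockdown and 1 over time. Over all genes 5.25% and 18% had such a p. Called were 0.0135% of all genes at knockdown, 4.34% over time and 2.57% between hmgn5 siRNA at 24 h and control at 4 h. Spred1, an inhibitor of the Ras pathway downstream of these receptors, differed by -0.22 over time (limma adjusted p = 0.0605) and by 0.27 at knockdown (adjusted p = 0.365). Over time it passed without control 4 h replicate 2 (-0.25, adjusted p = 0.0284), with array weights (0.0149), with the trend and robust prior (0.039) and without the dimmest genes (0.0425). Of 33 measured genes of receptor signalling 0 were called in each comparison. An unadjusted p under 0.05 was found for 7 over time and 2 at knockdown, beside 18% and 5.25% of all genes. Medians were 0.02 and -0.02. The adapter gene Sh2d2a, which binds Kdr, had the smallest p of these at knockdown (-0.30, adjusted p = 0.418), and Grb2, an adapter between receptors and Ras, differed by 0.21 over time (adjusted p = 0.156).

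**Figure D4:**
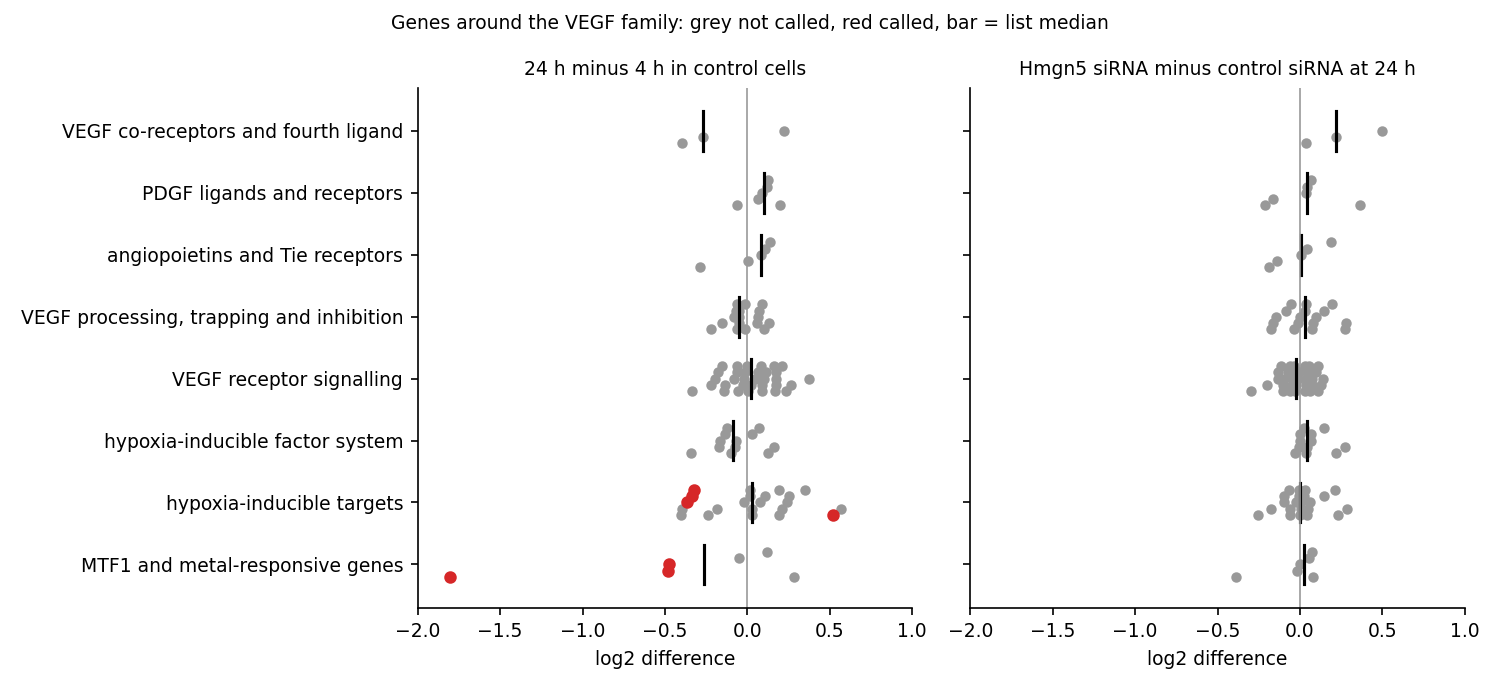
Log2 differences of the genes in 8 lists around the family, over time in control cells (left) and between the siRNAs at 24 h (right). Each point is a gene, red points passed the test (adjusted p under 0.05) and bars are list medians. Calls appear only on the left, in the hypoxia target and metal-response lists.

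The hypoxia-inducible factors and their regulators gave 0 of 12 calls by limma in each comparison (2 of 12 with an unadjusted p under 0.05 in each), with a median of -0.09 over time. Over all genes 5.25% had such a p at knockdown, 18% over time and 15.7% between hmgn5 siRNA at 24 h and control at 4 h. In the same order 0.0135%, 4.34% and 2.57% of all genes were called. Hif1a, the oxygen-regulated subunit, differed by -0.17 over time (limma adjusted p = 0.201) and by 0.22 at knockdown (adjusted p = 0.79). A second Hif1a probe set, with a mean of 4.71 against 10.2, gave 0.03 and -0.02. Targets of the hypoxia-inducible factors moved both ways in control cells, where 1 of 22 rose and 3 fell (4.34% of all genes were called), with a median of 0.03. Over time 9 of 22 had a limma unadjusted p under 0.05, beside 18% of all genes. Groups of arrays were apart for 12 of 22, beside 21.3% of all genes. P4ha2, a collagen prolyl hydroxylase subunit, rose by 0.52 (limma adjusted p = 0.0337). The glycolytic enzyme gene Pgk1 fell by 0.37 (adjusted p = 0.0146), Ndrg1 by 0.34 (0.0114) and the oxidoreductase gene Ero1a by 0.33 (0.0401). Second probe sets gave 0.06 for Ndrg1 and -0.06 for Ero1a. When arrays were left out singly, the P4ha2 call held only without control 4 h replicate 1 or 2, and the Ero1a call only without hmgn5 siRNA replicate 1 or 3 (adjusted p up to 0.126 and 0.135). Pgk1 did not pass without control 24 h replicate 1 or replicate 2, and Ndrg1 did not pass without control 24 h replicate 2 (highest adjusted p 0.0641 and 0.0539). Centring on array medians ended the Pgk1 and Ero1a calls (0.0579 and 0.0917).

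Between hmgn5 siRNA at 24 h and control at 4 h, 2 of these 22 targets were higher and 1 lower, where 2.57% of all genes were called. In that comparison 10 of 22 had a limma unadjusted p under 0.05, beside 15.7% of all genes. Slc2a1, a glucose transporter gene, differed by 0.48 (limma adjusted p = 0.0233), P4ha2 by 0.52 (0.0476) and Pgk1 by -0.32 (0.0341). The Slc2a1 call was lost without any 1 of the hmgn5 siRNA arrays (adjusted p up to 0.0912), and a second probe set gave -0.01. The P4ha2 and Pgk1 calls were kept only without control 4 h replicate 2 when arrays were left out singly (adjusted p up to 0.15 and 0.133).

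Of 6 metal-responsive genes measured, 3 fell over time and 0 rose, where 4.34% of all genes were called. Over time 4 of 6 had a limma unadjusted p under 0.05, beside 18% of all genes. Between hmgn5 siRNA at 24 h and control at 4 h 4 of 6 did, beside 15.7%. Mt2, a zinc-binding metallothionein, fell from 9.97, 10.09 and 9.98 at 4 h to 8.08, 8.17 and 8.38 in 24 h controls, and measured 7.73, 7.84 and 7.89 with hmgn5 siRNA. Gclc of glutathione synthesis fell by 0.48 (limma adjusted p = 0.00835) and Mt1 by 0.47 (adjusted p = 0.0368), the latter call being kept only without control 4 h replicate 2 when arrays were left out singly (adjusted p up to 0.134). The Mt1 call also ended with centring on array medians (0.0846) and with only the 2 groups compared (0.119). Mtf1 itself differed by -0.05 (adjusted p = 0.745). Between hmgn5 siRNA at 24 h and control at 4 h, Mt2 fell by 2.19 (adjusted p = 8.15e-06) and Gclc by 0.50 (adjusted p = 0.0111), where Gclc did not pass without hmgn5 siRNA replicate 1 or replicate 2 (highest adjusted p 0.0567). At knockdown 0 of 6 were called (1 of 6 with an unadjusted p under 0.05), nor were any of the 22 hypoxia targets (4 of 22). Over all genes 0.0135% were called there and 5.25% had an unadjusted p under 0.05.

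Taking the 8 lists as 104 distinct measured genes, 1 rose and 6 fell over time by limma, 6.73% where 4.34% of all genes were called. At knockdown 0 were called, where 0.0135% of all genes were. Markers of other cells were counted beside the Pgf values. Of 14 endothelial, 12 leukocyte, 12 fibroblast and pericyte, 8 glial and 5 trophoblast markers measured, 0 were called in any comparison. The shares of all genes called were 4.34% over time, 0.0135% at knockdown and 2.57% between hmgn5 siRNA at 24 h and control at 4 h. The summed linear signal of the endothelial markers ranged from 702 to 755 at 4 h and from 741 to 783 in 24 h controls. For trophoblast, a known source of Pgf, it ranged from 151 to 160 and from 160 to 167, and for glia from 270 to 336 and from 370 to 379. Erbb3, the brightest glial marker, differed by 0.59 over time (limma adjusted p = 0.13). The sum of the sympathetic markers ranged from 22698 to 26978 at 4 h and from 29960 to 31444 in 24 h controls, with Th and Dbh called higher. The part of these sums in the Pgf difference was not tested.

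The genes whose profile over the 9 arrays was closest to that of Pgf were found by the root mean square difference between profiles after each gene's own mean was subtracted. Pgf itself deviated by 0.55 from its mean on this measure. Parp3, a DNA repair polymerase of the poly-ADP-ribose family, was closest (0.13), followed by the cyclin gene Ccng2 (0.15), Brinp2 (0.15), the Wnt inhibitor gene Apcdd1 (0.16), the phosphatase gene Dusp8 (0.17) and the chaperone gene Hsph1 (0.17). Each was 0.89 to 1.34 higher at 24 h than at 4 h in control cells. The 24 h control with the highest Pgf value, replicate 3, was also the highest of its group for Parp3 and Dusp8 but not for the other 4. Since a large step between 4 h and 24 h dominates the measure, the 6 genes share that step by construction.

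**Figure D5:**
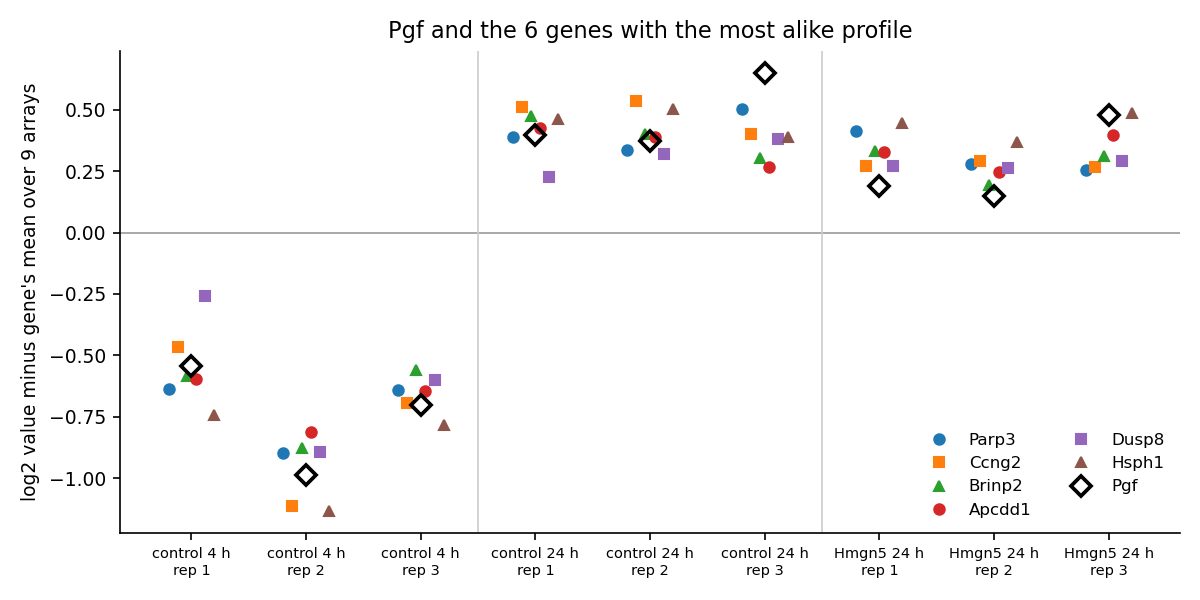
Values of Pgf (open diamonds) and of the 6 genes with the closest profile on each array, as log2 value minus the gene's mean over the 9 arrays. All 7 lie below 0 on the 4 h arrays, lowest on control 4 h replicate 2, and above 0 on the 24 h arrays of both siRNAs.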

How the data were processed

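RNA of 9 samples was measured on Affymetrix whole-transcript arrays after amplification to sense-strand cDNA and biotin labelling, per the labels' protocols. The authors deposited log2 expression values per probe set made with oligo and RMA, per the submitters' processing notes. Versions, filters and a genome build for the array are not given in the sources used here. RMA equalises the arrays' distributions, so a shift shared by most genes would not be seen, and the number of arrays limits the precision.

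Probe sets with 1 annotated gene symbol (23521 of 41345) were reduced to 22180 genes by the highest mean over all arrays. limma 3.58.1 in R 4.3.3 (lmFit, eBayes) was fitted to all 9 arrays with group means. The threshold for a call was an adjusted p of 0.05 (Benjamini-Hochberg, over all genes), and 3 comparisons were read from the fit. Intervals are the fit's 95% intervals, unadjusted. Of the steps, only the limma fit was run on simulated data, with independent normal noise and 200 changed genes. That simulation held no outlying array, no shared replicate effect and no repeated values.

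The members, the 8 lists and the markers were chosen with earlier results of these data known. Named from a list were its called genes, at most 6 a comparison, or otherwise genes with the smallest p. Mtf1 and single cell type markers were named outside this rule, after their values were seen. Promoter windows are RefSeq's (GRCm38.p6). Sensitivity checks varied the replicate block, samples fitted, prior, array weights, dim-gene filter, scaling, probe-set rule and arrays left out.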

Additional observations from a re-analysis of the deposited data

How the results depend on the processing

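Pgf kept its sign in all 3 comparisons under every alternative run, 17 each. In the comparisons with the 4 h arrays those values chose the gene, so its kept sign there is a description and no support. At knockdown the 24 h control arrays are shared with the comparison that chose Pgf, so the kept sign there is no support either. Leaving out single arrays gave 1.10 to 1.32 over time, 0.90 to 1.12 for hmgn5 siRNA at 24 h against control at 4 h, and -0.30 to -0.11 at knockdown. No tested member was called under any alternative. Genes called at knockdown numbered 3, and 1 with a block for the replicate number, 5 with a trend and robust prior, 7 with array weights and 0 to 2 with single arrays left out. Over time they numbered 963, and 280 with only the 2 groups compared, 1685 with array weights and 310 to 1238 with single arrays left out. For hmgn5 siRNA at 24 h against control at 4 h they numbered 569, and 113, 1226 and 165 to 784 in the same order. The cause of these shifts was not tested. Centring on array medians moved the share of higher calls from 49.9% to 60.7% over time and from 59.4% to 71.7% in the third comparison, while Pgf moved to 1.26 and 1.06. Deviations from the group means correlated between 0.01 and 0.29 for arrays with the same replicate number, and 16 of 18 best matches carried the array's own number. Whether equal numbers mark samples handled together was not tested. The main fit did not include a block for the replicate number. With that block Vegfd was called over time and the Ero1a (adjusted p = 0.0593) and, against control at 4 h, Pgk1 (0.0572) calls were lost. With only the 2 groups compared, the calls of Pgk1, Ndrg1, P4ha2, Ero1a and Mt1 over time (adjusted p from 0.0508 to 0.119) and of Pgk1, P4ha2 and Slc2a1 in the third comparison (from 0.103 to 0.123) were lost. Centring also ended the third comparison's Pgk1 (0.132) and P4ha2 (0.0563) calls, and averaging probe sets ended those of Ndrg1 (0.351), Ero1a (0.277) and Slc2a1 (0.135).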
